A study of Mus musculus with 12 samples.

Results

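Interleukin receptors are the cell-surface chains that bind interleukins. The genes described here were all entries of the deposited mouse expression table whose symbol is Il, digits, r and at most 4 further letters or digits. Il2ra, Il7r and the soluble antagonist Il1rn were left out. There were 38 such genes among 24319 entries, and they were sorted into 7 families by the receptor they belong to.

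RNA came from liver cells of C57BL/6 mice that carry CD45, a surface protein of immune cells. These cells were stained with a PE-labelled antibody, pulled down with PE microbeads, and sequenced as stranded mRNA libraries. Every mouse, controls included, had received human c-Myc and N-ras into the liver by hydrodynamic transfection on day 0. The control group received intraperitoneal PBS on days 14, 16, 18, 20 and 22 and 200 µg IgG on days 17, 19 and 21. The polyIC group received 4 mg/kg polyIC, a synthetic double-stranded RNA, in place of PBS, and the same IgG. In the antiPDL1 group the IgG was replaced by 200 µg of PD-L1 Ab, which binds a ligand of the inhibitory receptor PD-1, beside PBS. The combination group received polyIC and the PD-L1 antibody. Animals were killed on day 24 by the protocol, while the time-point label reads day 22. Each group had 3 libraries, numbered 0, 1 and 2. The labels used here give neither the age of the mice nor whether the 3 libraries came from separate mice, so the p-values measure the spread between these libraries, which may be technical.

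Most interleukin receptors are pairs or trios of chains in which a private chain recognises the ligand and a shared chain carries the signal. The common gamma chain, the common beta chain, gp130 and the IL-12 receptor chains signal through JAK kinases and STAT factors, whereas receptors of the IL-1 and IL-18 family signal through MyD88 and IRAK kinases. Some chains are decoys, which bind a ligand without passing on a signal. In the liver, immune cells, endothelium and hepatocytes carry different sets of these chains.

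Values were read as FPKM, sequenced fragments scaled to transcript length and sequencing depth. The exact scaling between libraries was not given. Differences were tested with limma on log2(FPKM + 1) in 1 fit of all 12 libraries, with Benjamini-Hochberg adjustment over 11978 genes. A gene was called when its adjusted p was below 0.05. A fold below is the ratio of mean FPKM, and a log2 change is on the log2(FPKM + 1) scale, which understates the change of low genes. Of the 38 receptor genes, 25 reached 1 FPKM in at least 3 libraries and were tested.

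The libraries summed to 476111 to 677535 FPKM, and their relative sequencing depth, estimated from the steps between low values, ran from 0.459 to 1. Ptprc, which encodes CD45, was present in every library, at 206 to 261 FPKM in control and 381 to 487 FPKM in the combination. The groups also differed in the summed level of cell type markers. The 12 T cell markers summed to 310 to 907 FPKM in control, 1495 to 2094 in polyIC, 703 to 1879 in antiPDL1 and 2261 to 2843 in the combination. The 10 NK cell markers summed to 193 to 595, 2328 to 3989, 428 to 861 and 1170 to 1642 FPKM in the same order. The 10 B cell markers summed to 469.5 to 1297, 254 to 424, 189 to 464 and 83.0 to 173 FPKM. The Kupffer cell markers, 9 of 10 usable, summed to 1902 to 8926, 1144 to 2144, 1113 to 6523 and 271 to 497 FPKM. The 12 hepatocyte markers, which a CD45 selection should deplete, summed to 1607 to 4643, 1842 to 2588, 731 to 2468 and 439 to 640 FPKM. None of these markers was at 0 throughout a group. Control replicate 2 stood apart from the other controls, with the lowest Kupffer cell sum and the highest T cell and B cell sums of the group. AntiPDL1 replicate 2 had the highest Kupffer cell sum of its group, at 6523 FPKM. In such bulk samples, fewer cells of a type and less RNA per cell cannot be told apart.

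The receptor genes spanned more than 3 orders of magnitude of FPKM. The shared chains Il2rb and Il2rg stood highest, with means of 250.4 and 248.7 FPKM over the 12 libraries. Their ranges overlapped each other, and that of Il2rg did not overlap that of the next gene. Il10rb and Il10ra followed at 96.0 and 84.7 FPKM, then Il21r at 64.7, Il13ra1 at 45.2, Il17ra at 43.1, Il4ra at 35.7, Il6ra at 25.9 and Il27ra at 22.7 FPKM. A middle group held Il3ra at 16.5, Il1r2 at 15.2, Il12rb1 and Il18rap at 14.1 each, Il18r1 at 10.7, Il15ra at 9.06, Il12rb2 at 7.88, Il1rap at 6.68 and Il11ra1 at 4.57 FPKM. Il9r, Il1rl2, Il17rb, Il1r1, Il1rl1 and Il5ra averaged 0.967 to 1.79 FPKM. Neighbours in this order overlapped in range except where stated.

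The combination changed the receptor genes in both directions. Against control, 14 of the 25 tested genes were called, 6 higher and 8 lower. Among all genes tested 29.4% were called, 13.1% higher and 16.3% lower. The genes that rose were Il12rb1, Il21r, Il15ra, Il2rb, Il27ra and Il2rg, chains of receptors for IL-12, IL-21, IL-15, IL-2 and IL-27. The genes that fell were Il5ra, Il1r1, Il17rb, Il1rl2, Il11ra1, Il6ra, Il9r and Il10rb. The median log2 change of the 25 was 0.17, and that of all genes tested was 0.05. Of the low genes, 5 had no combination library at 1 FPKM and passed the filter through other groups (Il17rb, Il1r1, Il1rl1, Il1rl2 and Il5ra), and 4 of these 5 were among the calls. Of the 19 genes at 1 FPKM or more in every library, 9 were called.

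Each agent alone gave 0 called receptor genes in limma. For polyIC against control, 3.63% of all genes were called. At an unadjusted p below 0.05 there were 9 of the 25, 3 higher and 6 lower, beside 22.2% of all genes. For antiPDL1 against control, 0.267% of all genes were called. Here 4 of the 25 had an unadjusted p below 0.05, 2 in each direction, beside 17.0% of all genes. The combination was also compared with each agent, with 0 receptor genes called in both cases. Against polyIC, 1.24% of all genes were called, and 6 receptor genes had an unadjusted p below 0.05, beside 13.6% of all genes. Against antiPDL1, 0.125% of all genes were called, and 7 receptor genes had an unadjusted p below 0.05, beside 14.4% of all genes. The interaction, which asks whether the polyIC effect differed with and without the antibody, called 0 receptor genes and 0.0167% of all genes. At an unadjusted p below 0.05 there were 0 receptor genes and 2.4% of all genes. The comparisons against control share the 3 control libraries, so their values are given side by side and not counted as agreement.

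The count for single agents rested on few libraries. Without control replicate 2, 6 receptor genes were called for polyIC against control, with 15.6% of all genes called. Leaving out control replicate 0 or 1, or any 1 polyIC library, gave 0, with 0.351% to 1.29% of all genes called. Without antiPDL1 replicate 2, 2 were called for antiPDL1 against control, with 17.4% of all genes called. In that comparison, leaving out control replicate 0 or 1, or antiPDL1 replicate 0 or 1, gave 0, with 0.00835% to 0.225% of all genes. Leaving out control replicate 2 also gave 0, with 3.3% of all genes. Control replicate 2 and antiPDL1 replicate 2, singled out above by their marker sums, were also left out together. This gave 11 calls for polyIC, with 24.2% of all genes called, and 8 for antiPDL1, with 28.2% of all genes called. The combination then gave 15, with 43.3% of all genes called, and Il9r was no longer among them. In that setting, polyIC gave higher Il12rb1, Il18r1, Il21r, Il2rb and Il2rg and lower Il1r1, Il1rl2, Il10rb, Il13ra1, Il11ra1 and Il6ra.

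**Figure D1:**
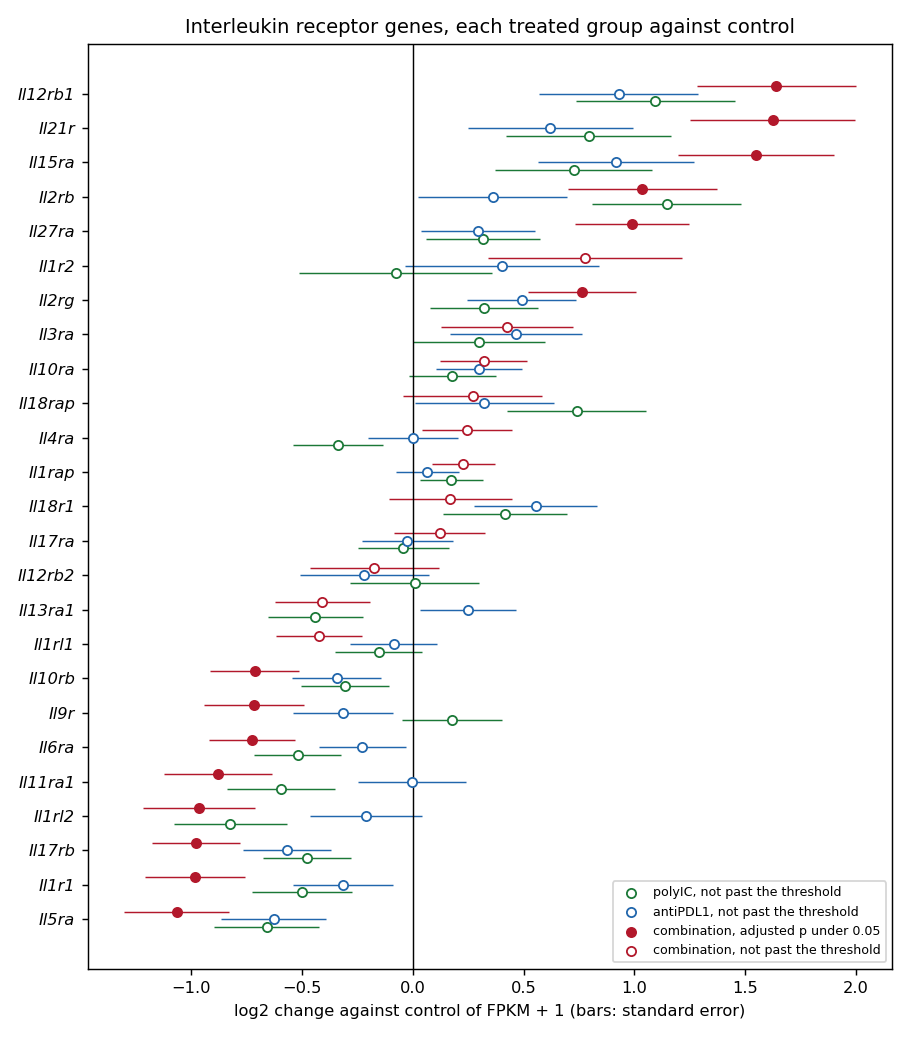
Log2 change, on the log2(FPKM + 1) scale, of the 25 tested interleukin receptor genes against control in the polyIC, antiPDL1 and combination groups, with standard errors and filled marks for adjusted p below 0.05. All 14 filled marks belong to the combination, 6 to the right of 0 and 8 to the left.

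Of the common gamma chain family, 4 of 6 genes rose and 1 fell in the combination against control, with a median log2 change of 0.90. Among all genes tested 13.1% were called higher and 16.3% lower. The common gamma chain family holds the receptors for IL-2, IL-4, IL-9, IL-15 and IL-21, which act on T, NK and B cells. Il21r encodes the private chain of the IL-21 receptor. It measured 23.4, 30.1 and 53.0 FPKM in control, 77.7, 59.2 and 44.1 in polyIC, 89.7, 45.3 and 34.5 in antiPDL1 and 103, 129 and 87.3 in the combination. The lowest combination library was above the highest control library, while polyIC and antiPDL1 overlapped control. The combination mean of 107 ± 21.0 FPKM (SD, n = 3) was 3.0-fold the control mean of 35.5 ± 15.5. The log2 change was 1.62 (SE 0.37, limma adjusted p = 0.00972), and the gene was called in all 12 runs with 1 library left out.

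Il15ra encodes the alpha chain that binds IL-15 and presents it to neighbouring cells. Its level was 4.30, 5.34 and 3.19 FPKM in control, 8.51, 7.95 and 6.46 in polyIC, 15.1, 10.8 and 3.96 in antiPDL1 and 13.7, 17.3 and 12.1 in the combination. The polyIC and the combination libraries were all above the controls, and antiPDL1 replicate 2 lay among the controls. The combination mean was 3.36-fold the control mean (log2 change 1.55, SE 0.35, limma adjusted p = 0.00945), called in all 12 runs with 1 library left out.

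Il2rb and Il2rg encode the beta and gamma chains that the IL-2 and IL-15 receptors share. Il2rb measured 114, 111 and 255 FPKM in control, 384, 312 and 297 in polyIC, 235, 174 and 169 in antiPDL1 and 457, 256 and 242 in the combination. All polyIC libraries were above the controls, whereas combination replicate 2 was below control replicate 2. Its log2 change was 1.04 in the combination (SE 0.34, limma adjusted p = 0.0386) and 1.15 in polyIC (SE 0.34, limma adjusted p = 0.0830). Il2rg measured 148, 154 and 270.1 FPKM in control, 243, 219 and 226 in polyIC, 277, 297 and 209 in antiPDL1 and 374, 278 and 290.4 in the combination. The combination libraries were all above the controls, with control replicate 2 close behind (log2 change 0.76, SE 0.24, limma adjusted p = 0.0368). Both calls were lost without control replicate 0 or 1, without any 1 polyIC library and without any 1 combination library, with adjusted p up to 0.146 for Il2rb and 0.147 for Il2rg. Both were also lost with quantile normalization (limma adjusted p = 0.112 and 0.124) and with only the groups compared in the fit (0.0860 and 0.0752). Il2rb was lost without a filter (0.0556), and Il2rg with the replicate number as a block (0.0504).

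Il9r, which encodes the IL-9 receptor chain, was the member of the family that fell. It measured 1.67, 1.68 and 3.18 FPKM in control, 1.98, 3.34 and 2.35 in polyIC, 1.55, 1.20 and 1.78 in antiPDL1 and 1.33, 0.575 and 0.845 in the combination. All combination libraries were below the controls and below the polyIC libraries. The combination mean was 2.38-fold lower than control (log2 change -0.72, SE 0.23, limma adjusted p = 0.0346). Without control replicate 0 or 2, or combination replicate 1 or 2, the call was lost, with adjusted p up to 0.139. It was also lost with quantile normalization (log2 change -0.32, limma adjusted p = 0.323), with only the groups compared in the fit (limma adjusted p = 0.0674) and without control replicate 2 and antiPDL1 replicate 2 together (0.0768). Against polyIC the log2 change was -0.89 (SE 0.23, limma adjusted p = 0.0811). Il4ra, the chain shared by the IL-4 and IL-13 receptors, was 34.0 to 37.6 FPKM in control, 24.5 to 30.9 in polyIC, 29.5 to 47.0 in antiPDL1 and 34.4 to 53.2 in the combination. Its log2 change in the combination against control was 0.24 (limma adjusted p = 0.379).

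Markers of T and NK cells summed higher in the combination than in control, as given above, and their part in the changes was not tested. The NK cell sums were higher in polyIC than in the combination, as was the mean of Il9r. For Il2rb the means were close, at 331 FPKM in polyIC and 318 in the combination, and the libraries overlapped. The T cell sums were higher in the combination (2261 to 2843 FPKM) than in polyIC (1495 to 2094), as were the means of Il21r, Il15ra and Il2rg. Relative to Ptprc in the same library, the combination and control values overlapped for Il21r, Il2rb and Il2rg. For Il15ra the ratio to Ptprc was 0.0122 to 0.0213 in control and 0.0248 to 0.0360 in the combination, without overlap. It was 0.0174 to 0.0224 in polyIC, overlapping control, and 0.0148 to 0.0445 in antiPDL1, overlapping both control and the combination.

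**Figure D2:**
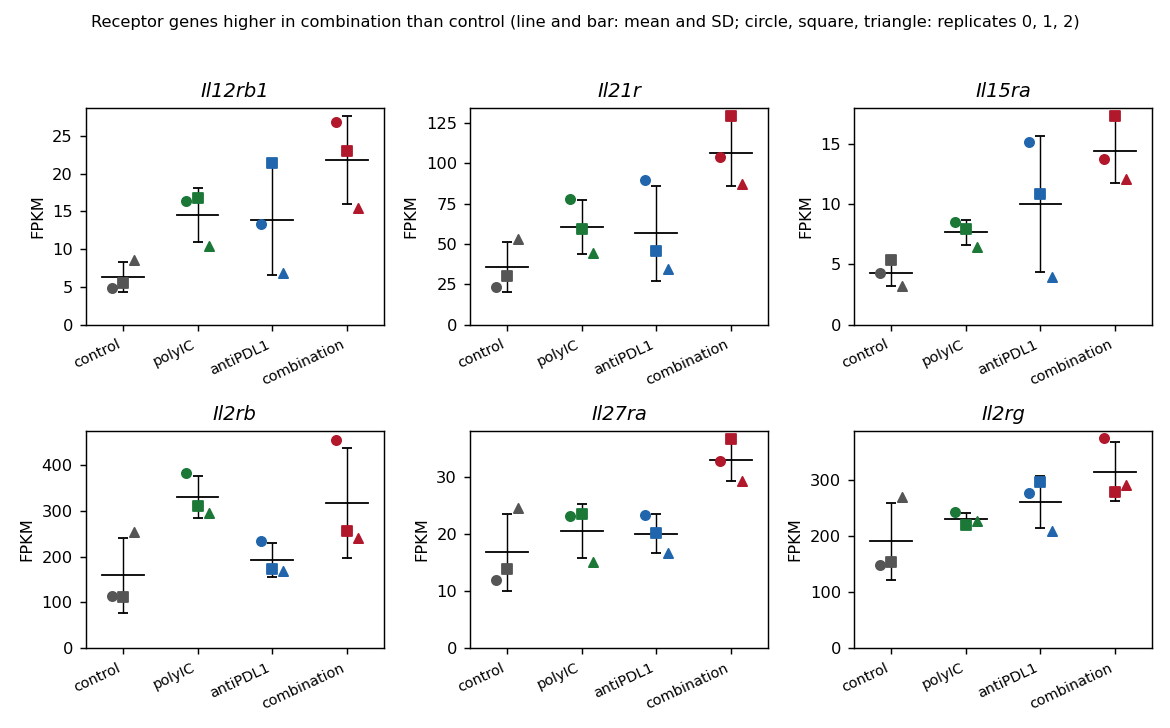
FPKM of the 6 interleukin receptor genes called higher in the combination than in control, in each of the 12 libraries, with 1 mark per library. Il21r, Il15ra, Il12rb1, Il27ra and Il2rg do not overlap between control and combination, while combination replicate 2 of Il2rb, at 242 FPKM, lies below control replicate 2 at 255.

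Il21r and Il4ra are neighbours on mouse chromosome 7, and their promoter windows are shown because only Il21r rose in these libraries by the test. Each window is the RefSeq sequence of GRCm38.p6 from 250 bases before to 50 bases after the annotated start, on the plus strand. That of Il21r is chr7:125603179-125603478 and that of Il4ra is chr7:125552021-125552320. The Il15ra window at chr2:11705462-11705761, plus strand, belongs to the second of its annotated starts and is shown because it holds an AP-1 match, TGANTCA, in capitals, 30 bases before the start.
Il21r: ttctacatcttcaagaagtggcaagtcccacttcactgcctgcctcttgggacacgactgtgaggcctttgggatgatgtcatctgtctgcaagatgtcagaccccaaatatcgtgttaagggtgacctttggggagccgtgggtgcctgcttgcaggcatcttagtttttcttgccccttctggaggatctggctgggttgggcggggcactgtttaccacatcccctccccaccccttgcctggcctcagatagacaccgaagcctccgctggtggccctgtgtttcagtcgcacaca
Il4ra: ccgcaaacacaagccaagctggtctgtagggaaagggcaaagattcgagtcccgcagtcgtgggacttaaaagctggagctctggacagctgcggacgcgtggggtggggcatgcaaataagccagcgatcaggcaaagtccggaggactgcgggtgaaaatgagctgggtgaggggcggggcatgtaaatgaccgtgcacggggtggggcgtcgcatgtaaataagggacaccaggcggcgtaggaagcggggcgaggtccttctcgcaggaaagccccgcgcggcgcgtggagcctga
Il15ra: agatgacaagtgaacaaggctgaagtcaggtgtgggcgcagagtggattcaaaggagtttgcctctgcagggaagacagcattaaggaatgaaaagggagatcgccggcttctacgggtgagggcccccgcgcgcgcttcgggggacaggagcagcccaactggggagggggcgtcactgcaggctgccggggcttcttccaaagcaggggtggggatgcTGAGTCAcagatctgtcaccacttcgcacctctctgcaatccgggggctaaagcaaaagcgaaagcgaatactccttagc
Such windows were found for 31 of the 38 genes, 37 windows in all. Neither strand of the Il21r and Il4ra windows held any of the 4 motifs searched, which says only that these letters are absent there. The motifs were TTCNNNGAA for STAT factors, GAAA, NN and GAAA in a row for interferon response elements (ISRE), TGANTCA for AP-1 and TCACACC for T-box factors. They were present in 4, 1, 6 and 1 of the 37 receptor windows, and in 8.30%, 3.44%, 7.81% and 3.98% of all 32851 RefSeq windows of the same length. A match is a description of letters, not of binding.

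Of the IL-6 and IL-12 family receptors, 2 of 5 tested genes rose and 2 fell in the combination, where 13.1% of all genes were called higher and 16.3% lower. Il12rb1 encodes the chain shared by the IL-12 and IL-23 receptors. It measured 4.86, 5.50 and 8.56 FPKM in control, 16.4, 16.8 and 10.4 in polyIC, 13.4, 21.3 and 6.84 in antiPDL1 and 26.9, 23.0 and 15.5 in the combination. PolyIC and combination libraries were all above the controls, and antiPDL1 replicate 2 was within the control range. The combination mean of 21.8 ± 5.79 FPKM was 3.46-fold the control mean of 6.31 ± 1.98 (SD, n = 3). The log2 change of 1.64 (SE 0.36, limma adjusted p = 0.00787) was called in all 12 runs with 1 library left out. In polyIC alone the log2 change was 1.09 (SE 0.36, limma adjusted p = 0.110).

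Il12rb2, the partner that completes the IL-12 receptor, was 6.36, 5.85 and 14.5 FPKM in control, 6.20, 10.3 and 8.77 in polyIC, 5.41, 8.38 and 7.23 in antiPDL1 and 7.41, 6.62 and 7.50 in the combination. Its groups overlapped, and the log2 change in the combination was -0.17 (limma adjusted p = 0.676). The ratio of Il12rb1 to Il12rb2, chosen after the values were seen and given without a test, was 0.763, 0.940 and 0.592 in control and 3.63, 3.47 and 2.07 in the combination. It was 2.64, 1.63 and 1.19 in polyIC, and 2.47, 2.55 and 0.945 in antiPDL1.

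Il27ra encodes the private chain of the IL-27 receptor. It measured 11.95, 14.0 and 24.6 FPKM in control, 23.1, 23.6 and 15.1 in polyIC, 23.4, 20.3 and 16.7 in antiPDL1 and 32.8, 36.8 and 29.4 in the combination. The combination libraries stood above all 9 others. The mean was 1.96-fold that of control (log2 change 0.99, SE 0.26, limma adjusted p = 0.0165). The call was lost without control replicate 0 or 1 or combination replicate 1, with adjusted p up to 0.0737. Relative to Ptprc in the same library, the control and combination values overlapped for Il27ra (0.0557 to 0.0944 and 0.0604 to 0.0861) and for Il12rb1 (0.0219 to 0.0328 and 0.0318 to 0.0706). The T and NK cell markers given above also summed higher in the combination than in control, and their part in the rises was not tested. The NK cell sums were higher in polyIC than in the combination, whereas the T cell sums and the means of Il27ra and Il12rb1 were lower in polyIC.

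Il6ra encodes the IL-6 binding chain. Its values were 41.5, 31.1 and 27.0 FPKM in control, 21.9, 24.5 and 21.2 in polyIC, 26.6, 26.4 and 30.5 in antiPDL1 and 24.9, 18.9 and 15.4 in the combination. All polyIC and combination libraries were below the controls. The combination mean was 1.68-fold lower than control (log2 change -0.73, SE 0.20, limma adjusted p = 0.0187), a call that was lost without control replicate 0, combination replicate 1 or combination replicate 2, with adjusted p up to 0.0853, and with only the groups compared in the fit (0.0547). Il11ra1, the IL-11 binding chain, measured 6.31, 7.92 and 3.87 FPKM in control, 3.58, 4.22 and 2.87 in polyIC, 7.07, 6.79 and 4.02 in antiPDL1 and 3.14, 2.57 and 2.47 in the combination. Combination libraries were below every control and every antiPDL1 library. The mean was 2.21-fold lower than control (log2 change -0.88, SE 0.24, limma adjusted p = 0.0213), and the call was lost without control replicate 0 or 1 or combination replicate 1 or 2, with adjusted p up to 0.0795. Il11ra1 has a near-identical copy, Il11ra2, which was listed at 0 in all 12 libraries, so reads of both copies may stand under Il11ra1.

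Of the IL-1 and IL-18 receptor family, 2 of 7 tested genes fell in the combination and none rose. Among all genes tested 16.3% were called lower and 13.1% higher. Il1r1 encodes the signalling receptor for IL-1. It measured 2.77, 1.62 and 0.985 FPKM in control, 0.821, 0.980 and 0.925 in polyIC, 0.911, 0.943 and 1.75 in antiPDL1 and 0.481, 0.293 and 0.323 in the combination. Combination libraries were below all 9 others, and antiPDL1 replicate 2 stood with the controls. The mean was 4.90-fold lower than control (log2 change -0.98, SE 0.22, limma adjusted p = 0.00956), called in all 12 runs with 1 library left out. With quantile normalization the log2 change was -0.54 and the adjusted p 0.0522.

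Il1r2 encodes the decoy receptor for IL-1. It measured 6.37, 14.3 and 15.4 FPKM in control, 12.3, 10.4 and 9.40 in polyIC, 22.0, 24.1 and 6.38 in antiPDL1 and 17.5, 26.4 and 17.4 in the combination. Combination libraries were above the controls, but the difference was not called (log2 change 0.78, SE 0.44, limma adjusted p = 0.195). The ratio of decoy to signalling receptor, Il1r2 to Il1r1, was chosen after the values were seen and carries no test. It was 2.30, 8.79 and 15.7 in control, 15.0, 10.6 and 10.2 in polyIC, 24.2, 25.5 and 3.66 in antiPDL1 and 36.3, 89.8 and 54.0 in the combination. The combination ratios were above those of the other 9 libraries. Neutrophils, which carry Il1r2, had marker sums of 1062 to 3223 FPKM in control, 3396 to 5770 in polyIC, 1660 to 5495 in antiPDL1 and 2004 to 5714 in the combination. They were highest on average in polyIC, where Il1r2 had its lowest mean, and their part in the ratio was not tested.

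Il1r2, Il1r1, Il1rl2, Il1rl1, Il18r1 and Il18rap follow one another on mouse chromosome 1. The windows of the first pair are shown because they belong to the decoy and the signalling receptor of the same ligand. They were chr1:40085843-40086142 for Il1r2 and chr1:40224830-40225129 for the first of the annotated starts of Il1r1, both on the plus strand of GRCm38.p6 from RefSeq. Capitals mark a STAT match, TTCNNNGAA, 111 bases before the Il1r2 start. The Il1r1 window held none of the 4 motifs.
Il1r2: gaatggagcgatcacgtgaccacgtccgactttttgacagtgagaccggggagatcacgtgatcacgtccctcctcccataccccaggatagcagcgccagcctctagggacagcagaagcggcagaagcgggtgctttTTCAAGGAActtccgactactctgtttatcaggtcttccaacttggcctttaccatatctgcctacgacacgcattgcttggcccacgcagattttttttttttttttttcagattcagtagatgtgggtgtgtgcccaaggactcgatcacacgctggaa
Il1r1: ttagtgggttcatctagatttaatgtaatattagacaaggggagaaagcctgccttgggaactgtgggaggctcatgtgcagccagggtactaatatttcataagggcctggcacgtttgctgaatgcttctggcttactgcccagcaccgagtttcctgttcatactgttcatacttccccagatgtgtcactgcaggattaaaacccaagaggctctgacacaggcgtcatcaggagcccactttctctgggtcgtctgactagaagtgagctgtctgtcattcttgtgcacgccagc

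Il1rl2, the chain that binds the IL-36 cytokines, measured 2.82, 2.50 and 1.35 FPKM in control, 0.584, 1.27 and 0.586 in polyIC, 0.937, 2.28 and 2.20 in antiPDL1 and 0.526, 0.518 and 0.831 in the combination. All polyIC and combination libraries were below the controls. The combination mean was 3.56-fold lower (log2 change -0.96, SE 0.25, limma adjusted p = 0.0171), and the call was lost without control replicate 0 or 1 or combination replicate 1, with adjusted p up to 0.0716. With quantile normalization the log2 change was -0.55 (limma adjusted p = 0.0825). In polyIC alone the log2 change was -0.82 (SE 0.25, limma adjusted p = 0.0935). Il1rl1, the IL-33 receptor, was 0.941 to 1.93 FPKM in control and 0.663 to 0.722 in the combination, without overlap and not called (log2 change -0.42, limma adjusted p = 0.121). Il1rap, the accessory chain of the family, was the steadiest of it at 5.86 to 8.41 FPKM over the 12 libraries. Il18r1 and Il18rap, the IL-18 receptor chains of T and NK cells, were 6.13 to 17.3 and 8.21 to 24.8 FPKM. Their log2 changes in the combination were 0.17 and 0.27, with limma adjusted p of 0.669 and 0.537. In polyIC, where the NK cell markers summed highest, Il18rap was 14.3, 24.8 and 16.5 FPKM, above all controls (log2 change 0.74, SE 0.31, limma adjusted p = 0.195).

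**Figure D3:**
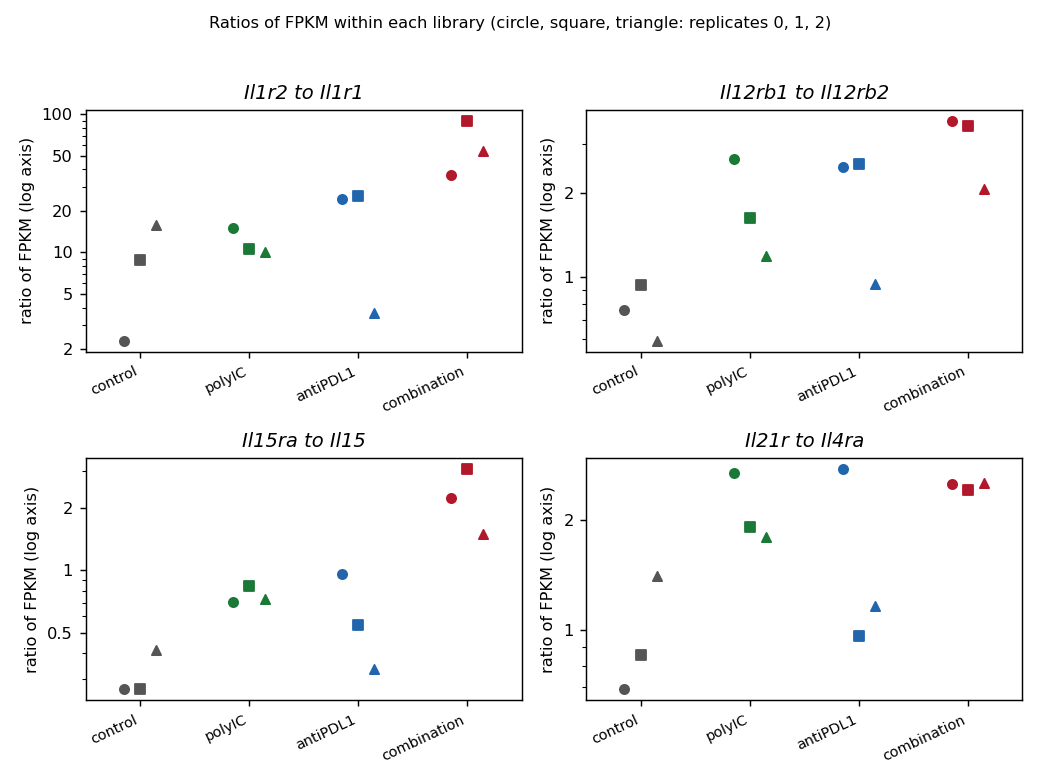
Ratios of FPKM within each library, on log axes, with circles, squares and triangles for replicates 0, 1 and 2 of each group. The Il1r2 to Il1r1 ratio runs from 2.30 to 15.7 in control and from 36.3 to 89.8 in the combination. The ratios of Il12rb1 to Il12rb2, Il15ra to Il15 and Il21r to Il4ra also do not overlap between these groups. For Il21r to Il4ra, polyIC replicate 0 (2.70) and antiPDL1 replicate 0 (2.76) lie above the combination (2.42 to 2.53). None of these ratios was tested.

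Of the common beta chain family, Il5ra fell and Il3ra was not called. Il5ra encodes the IL-5 binding chain, best known from eosinophils and a subset of B cells. It measured 1.45, 1.47 and 2.66 FPKM in control, 0.442, 1.10 and 0.861 in polyIC, 0.380, 0.991 and 1.19 in antiPDL1 and 0.359, 0.138 and 0.564 in the combination. The controls were above all 9 treated libraries. The combination mean of 0.354 ± 0.213 FPKM was 5.26-fold lower than the control mean of 1.86 ± 0.694 (SD, n = 3; log2 change -1.06, SE 0.24, limma adjusted p = 0.00854). It was called in all 12 runs with 1 library left out, and with quantile normalization the log2 change was -0.68 and the adjusted p 0.0715. The 5 eosinophil markers summed to 11.9 to 14.0 FPKM in control, 11.6 to 12.3 in polyIC, 4.81 to 12.2 in antiPDL1 and 2.45 to 4.48 in the combination. In polyIC and antiPDL1 these sums overlapped control, whereas Il5ra did not. The B cell sums given above were below control in every treated group, as was Il5ra. The part of eosinophils and B cells in the fall was not tested. Il3ra, the IL-3 binding chain, was 9.30 to 15.9 FPKM in control and 14.4 to 20.4 in the combination (log2 change 0.43, limma adjusted p = 0.295).

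Il5ra and Il17rb, both called lower, each had an AP-1 match in their windows, as did Il15ra, which rose. The Il5ra window lies at chr6:106748988-106749287 on the minus strand of GRCm38.p6 from RefSeq and is shown with the match, 99 bases before the start, in capitals.
Il5ra: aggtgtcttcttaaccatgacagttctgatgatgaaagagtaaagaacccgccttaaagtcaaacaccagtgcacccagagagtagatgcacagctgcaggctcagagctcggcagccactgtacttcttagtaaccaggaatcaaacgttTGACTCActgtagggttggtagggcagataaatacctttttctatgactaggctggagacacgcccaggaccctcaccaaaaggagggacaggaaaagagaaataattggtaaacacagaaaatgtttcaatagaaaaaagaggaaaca

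Of the IL-17 receptor family, Il17rb fell and Il17ra was not called. Il17rb encodes the chain that binds IL-25. It measured 1.54, 1.60 and 2.43 FPKM in control, 0.756, 1.15 and 1.22 in polyIC, 0.486, 1.24 and 1.10 in antiPDL1 and 0.298, 0.387 and 0.648 in the combination. As with Il5ra, every control library was above all 9 treated ones. The combination mean was 4.18-fold lower than control (log2 change -0.98, SE 0.20, limma adjusted p = 0.00599), called in all 12 runs with 1 library left out, with a log2 change of -0.55 and an adjusted p of 0.0882 under quantile normalization. The log2 change was -0.48 in polyIC and -0.57 in antiPDL1 (limma adjusted p = 0.189 and 0.226). Il17ra, the chain shared by the IL-17 receptors, was 34.5 to 53.9 FPKM over the 12 libraries, with a log2 change of 0.12 in the combination (limma adjusted p = 0.676).

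Of the IL-10 family receptors, Il10rb fell and Il10ra was not called. Il10rb encodes the chain shared by the receptors for IL-10, IL-22 and the lambda interferons. It measured 128, 144 and 91.5 FPKM in control, 96.9, 94.3 and 96.7 in polyIC, 93.1, 75.9 and 115 in antiPDL1 and 80.6, 70.7 and 65.8 in the combination. All combination libraries were below the controls. The mean was 1.67-fold lower (log2 change -0.71, SE 0.20, limma adjusted p = 0.0220), and the call was lost without control replicate 0 or 1 or combination replicate 1 or 2, with adjusted p up to 0.0821. Il10ra, the private chain of the IL-10 receptor, measured 80.1, 74.2 and 64.7 FPKM in control and 109, 79.9 and 86.7 in the combination, where its range overlapped that of control (log2 change 0.32, limma adjusted p = 0.232). The ratio of Il10ra to Il10rb, again without a test, was 0.627, 0.517 and 0.707 in control and 1.35, 1.13 and 1.32 in the combination.

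Il13ra1, the tested IL-13 receptor chain, was 56.6, 62.9 and 32.4 FPKM in control, 33.6, 33.7 and 39.9 in polyIC, 54.9, 57.8 and 61.7 in antiPDL1 and 34.7, 39.3 and 35.4 in the combination. Control replicate 2 lay with the polyIC and combination libraries and below the other controls. The log2 change in the combination was -0.41 (limma adjusted p = 0.169). Of the 12 runs with 1 library left out, 1 called it, that without control replicate 2 (log2 change -0.70, limma adjusted p = 0.00483). In the other 11 it was not called, with log2 changes as small as -0.23 and limma adjusted p up to 0.461.

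**Figure D4:**
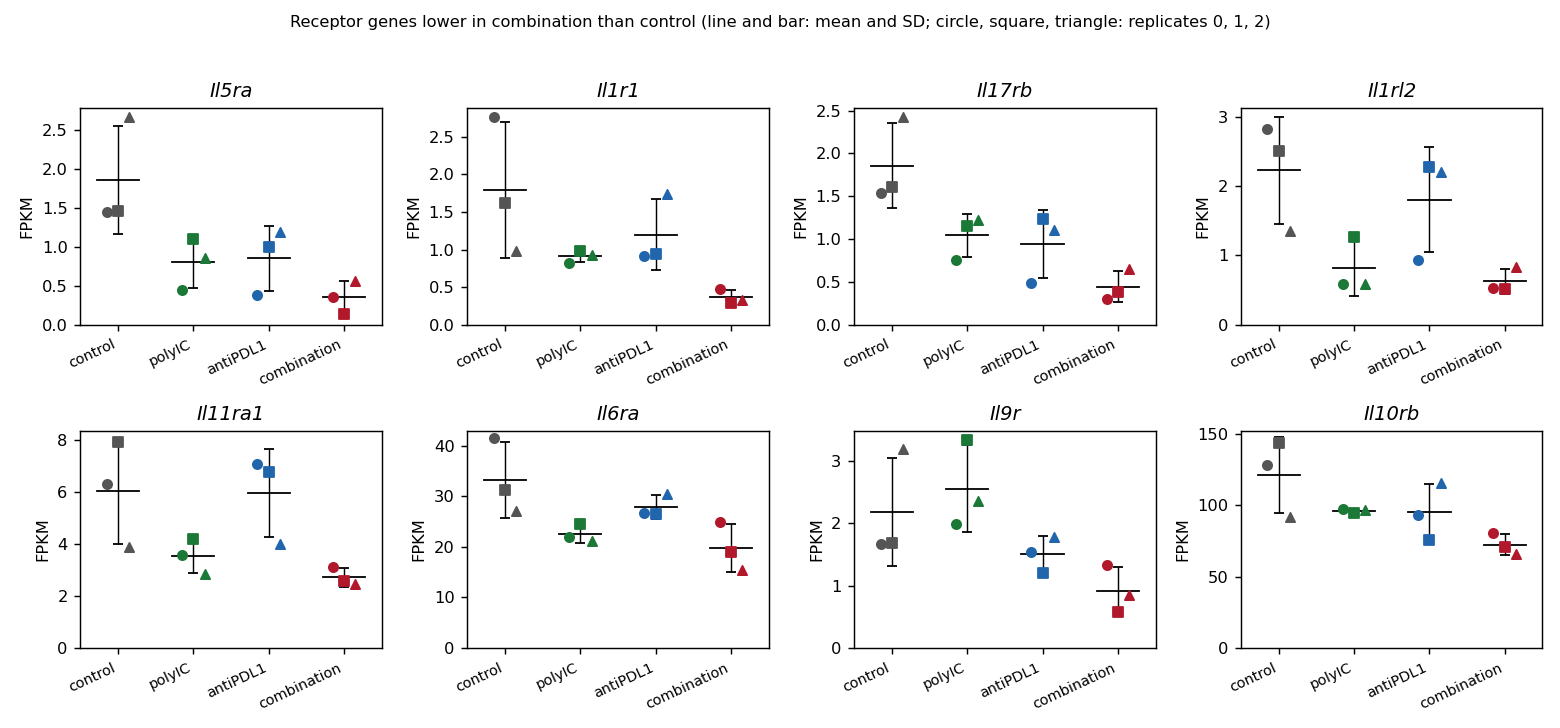
FPKM of the 8 interleukin receptor genes called lower in the combination than in control, in each of the 12 libraries. For all 8 the combination libraries lie below the controls, and for Il5ra and Il17rb the controls lie above all 9 treated libraries.

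Markers of Kupffer cells, sinusoidal endothelium and hepatocytes were lower in the combination than in control, as were those of B cells. The 9 sinusoidal endothelial markers summed to 222 to 805 FPKM in control and 82.0 to 178 in the combination. Their part in the 8 lower receptor genes was not tested. In control replicate 2, where the Kupffer cell, endothelial and hepatocyte sums were the lowest of the controls, Il1r1, Il1rl2, Il6ra, Il11ra1 and Il10rb were also the lowest of the controls, whereas Il5ra, Il17rb and Il9r were the highest.

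In counts of genes whose libraries do not overlap between groups, the combination and control were separated for 16 of the 25 tested receptor genes, 7 higher and 9 lower. The same held for 46.0% of all genes tested, 25.6% higher and 20.3% lower. PolyIC and control were separated for 10, 4 higher and 6 lower, with 28.6% of all genes, 16.2% higher and 12.4% lower. AntiPDL1 and control were separated for Il17rb and Il5ra, both lower, with 12.5% of all genes in either direction and 7.89% lower. The combination was separated from polyIC for 10, with 29.5% of all genes, and from antiPDL1 for 8, with 20.4% of all genes.

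Of the 38 receptor genes, 13 did not reach 1 FPKM in 3 libraries. Il1rapl1, Il1rapl2 and Il11ra2 were listed at 0 in every library. Il13ra2, the decoy receptor for IL-13, ran from 0.0505 to 2.23 FPKM, Il17rc from 0.134 to 1.56, Il20rb from 0.271 to 1.06 and Il20ra from 0.0450 to 0.532 FPKM. Il31ra, Il17re, Il23r, Il17rd, Il22ra2 and Il22ra1 stayed below 0.4 FPKM in every library. Il13ra2 was 2.23, 1.88 and 0.456 FPKM in control and 0.143, 0.0505 and 0.121 in the combination. Il17rc was 1.56, 1.31 and 0.656 FPKM in control and 0.235, 0.199 and 0.134 in the combination. Il20ra, which encodes a chain of the IL-20 receptors, was 0.0450, 0.0984 and 0.130 FPKM in control and 0.450, 0.532 and 0.431 in the combination.

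Ligands of these receptors also changed in both directions. Of 37 ligands and soluble antagonists, 15 were tested, and 2 rose and 6 fell in the combination against control, where 29.4% of all genes tested were called. Their median log2 change was -0.61, beside 0.05 over all genes tested. Il21, the ligand of Il21r, measured 0.163, 0.668 and 0.285 FPKM in control, 2.95, 1.51 and 1.64 in polyIC, 2.88, 1.27 and 1.53 in antiPDL1 and 9.96, 24.2 and 19.9 in the combination. The combination libraries were above all 9 others (log2 change against control 3.73, SE 0.32, limma adjusted p = 0.000414). Il21 was also called against polyIC (log2 change 2.60, limma adjusted p = 0.0290) and against antiPDL1 (2.67, limma adjusted p = 0.0108), calls lost in 4 and 3 of the 12 runs with 1 library left out. Il10 was 2.79 ± 2.25 FPKM in control and 50.9 ± 25.2 in the combination (SD, n = 3; log2 change 3.83, SE 0.50, limma adjusted p = 0.00138). It was also called against polyIC and against antiPDL1 (limma adjusted p = 0.0374 and 0.0348), calls lost in 7 and 9 of the 12 runs. Both ligands were called against control in all 12 runs with 1 library left out.

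Il15 and Il6 are named as the ligands of receptors described above, after their values were seen. Il15, the ligand of Il15ra, fell while its receptor rose. It measured 16.0, 19.9 and 7.67 FPKM in control and 6.11, 5.61 and 8.09 in the combination, with combination replicate 2 above control replicate 2 (log2 change -0.95, SE 0.30, limma adjusted p = 0.0346). The call was lost without control replicate 0 or 1 or combination replicate 0 or 1. The ratio of Il15ra to Il15 was 0.268, 0.268 and 0.416 in control, 0.707, 0.840 and 0.725 in polyIC, 0.956, 0.546 and 0.336 in antiPDL1 and 2.24, 3.08 and 1.49 in the combination. Among the ligands that fell were the IL-18 antagonist Il18bp (log2 change -2.22, limma adjusted p = 0.0121, lost without control replicate 0) and Il1a (-1.83, limma adjusted p = 0.0289, lost in 5 of 12 runs with 1 library left out), and Tslp (-1.50, limma adjusted p = 0.0153, lost in 3). Tslp, a low gene, was 2.32 ± 1.38 FPKM in control and 0.0941 ± 0.0817 in the combination (SD, n = 3). Il12b, a ligand of Il12rb1, was 5.37 ± 1.82 FPKM in control and 5.69 ± 1.16 in antiPDL1, against 1.25 ± 0.637 in polyIC and 1.31 ± 0.876 in the combination (SD, n = 3), and was called lower in polyIC and in the combination (limma adjusted p = 0.0295 and 0.00683). The polyIC call was lost without control replicate 1, polyIC replicate 0 or polyIC replicate 2. Il6, the ligand of Il6ra, was 1.85 ± 1.02 FPKM in control and 0.250 ± 0.185 in the combination (SD, n = 3; log2 change -1.13, limma adjusted p = 0.0108).

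Of 9 partner chains outside the name rule, 7 were tested, and in the combination 1 rose and 1 fell, where 29.4% of all genes tested were called. Their median log2 change was -0.17. Sigirr, an inhibitory member of the IL-1 receptor family, rose from 8.95 ± 2.49 to 15.5 ± 2.47 FPKM (SD, n = 3; log2 change 0.75, limma adjusted p = 0.0217, lost without control replicate 0 or 1 or combination replicate 0 or 1). Lifr, the receptor chain of leukemia inhibitory factor, fell from 13.4 ± 3.24 to 4.50 ± 0.384 FPKM (log2 change -1.37, limma adjusted p = 0.00378). Csf2rb2, the IL-3 specific beta chain of the mouse, was 29.7 ± 3.59 FPKM in control, 26.1 ± 3.71 in antiPDL1 and 26.3 ± 1.82 in the combination, against 14.2 ± 3.56 in polyIC (SD, n = 3). It was called lower in polyIC than in control (log2 change -1.03, limma adjusted p = 0.0150) and higher in the combination than in polyIC (0.86, limma adjusted p = 0.0479), the first call lost in 4 and the second in 8 of the 12 runs with 1 library left out. Csf2rb2 is nearly identical to Csf2rb, so their reads may be split.

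All 22 signal transducers were tested, and 5 rose and 1 fell in the combination, where 29.4% of all genes tested were called. Their median log2 change was 0.21. Jak3, the kinase bound to the common gamma chain, measured 14.6, 12.8 and 14.9 FPKM in control and 46.5, 44.8 and 28.3 in the combination (log2 change 1.41, SE 0.27, limma adjusted p = 0.00506). Socs3, a feedback inhibitor of gp130 receptors, was 10.2 ± 1.90 FPKM in control and 45.3 ± 19.1 in the combination (SD, n = 3; log2 change 1.98, limma adjusted p = 0.00910). Myd88, the adaptor of the IL-1 and IL-18 receptors, also rose, with a log2 change of 1.08 (limma adjusted p = 0.0184), lost in 2 of the 12 runs with 1 library left out. Socs2 fell, with a log2 change of -1.18 (limma adjusted p = 0.00674). The calls of Jak3, Socs3, Socs2 and Lifr were made in all 12 runs.

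**Figure D5:**
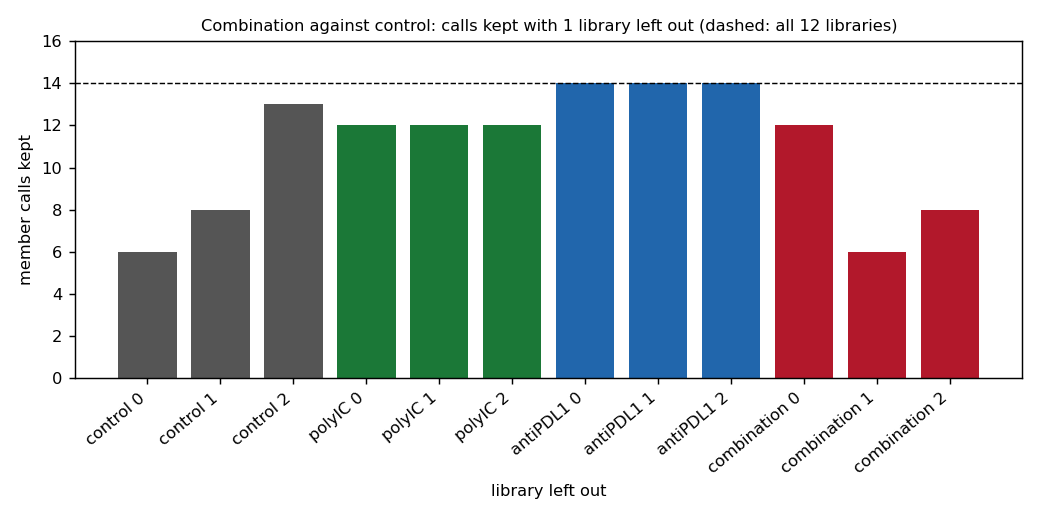
Number of the 14 combination calls that were called again when each of the 12 libraries was left out. Between 6 and 14 remained, fewest without control replicate 0 or combination replicate 1, and all 14 without any 1 antiPDL1 library.

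All 14 combination calls kept their sign in every run with 1 library left out, and 6 were called in every run: Il12rb1, Il21r, Il15ra, Il5ra, Il1r1 and Il17rb. These runs kept the same 25 tested genes, without applying the filter again. Il5ra, Il1r1 and Il17rb had no combination library at 1 FPKM, and Il1r1 reached it in only 3 libraries. With quantile normalization the calls of Il5ra, Il1r1 and Il17rb were lost (limma adjusted p = 0.0715, 0.0522 and 0.0882). Leaving out control replicate 0 or combination replicate 1 left 6 of the 14, and leaving out control replicate 1 or combination replicate 2 left 8.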

How the data were processed

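Stranded mRNA libraries of liver CD45-positive cells from 12 samples, 3 per group, were analysed from 1 deposited table of 24319 symbols. The authors made these FPKM values with Cuffdiff on the mouse genome mm9, per the submitters' processing notes. The unit was read from the values, since the table does not name it, with the aligner, annotation and scaling not given in the sources used here. In 27 entries the symbol had become a date. Counts are not in the table, so depth is relative only, precision rests on 3 libraries per group, and no intervals were computed.

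Tested genes reached 1 FPKM in 3 or more libraries, and 22 were left out that were listed at 0 throughout a group while every library of another group had at least 5 FPKM, read as failed estimates. This left 11978 genes. limma 3.58.1 (R 4.3.3) was fitted with a trend on log2(FPKM + 1), with group as the only term, two-sided, and Benjamini-Hochberg adjustment per comparison at 0.05. The script was tested on simulated data. Tables were handled with Python 3.11.15 and pandas 2.3.3. No block was used, since the labels do not say that a replicate number is shared between groups. The correlation of deviations of same-numbered libraries exceeded 0.1 in 4 of 18 pairs. Differently numbered pairs ran from -0.31 to 0.38, so these values cannot show whether libraries were paired.

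Members, families, pathway lists and marker lists were chosen with earlier results of these data known. Tested members are named with values, called members library by library and most others by range. At most 5 called genes were to be named per pathway list and comparison, by size of log2 change. Il12rb2, Il1r2, Il10ra and Il13ra1 are given library by library although not called, and Il15, Il6 and, for the combination, Il12b lie outside the rule, all chosen after their values were seen. Alternatives were another pseudocount, other filters, quantile and median-of-ratios scaling, a replicate block, array quality weights, libraries left out and separate fits for the 2 groups of a comparison. One result from a pathway list is not reported here.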

Additional observations from a re-analysis of the deposited data

How the results depend on the processing

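No member's call was reversed under any alternative run. For the combination against control, 14 receptor genes were called; 8 were called among genes with a mean of at least 5 FPKM (18 receptor genes tested, 22.7% of all genes called) and 7 of 25 with quantile normalization, where 30.5% of all genes were called. With 1 library left out the count ran from 6 to 14, and the share of all genes from 13.9% to 37.6%. The replicate block gave 13, with 32.8% of all genes called, and the loss was Il2rg. The block changed no other receptor call, and the deviations of same-numbered libraries correlated at -0.29 to 0.32. For polyIC against control, in place of 0, there was 1 call without a filter (3.0% of all genes) and 12 with array quality weights (28.7%). There were 11 without control replicate 2 and antiPDL1 replicate 2 (24.2%), and 0 to 6 with 1 library left out. For antiPDL1 against control these were 1 (0.738%), 5 (21.7%), 8 (28.2%) and 0 to 2. The call without a filter was Il22ra1 in both comparisons, lower from a control mean of only 0.155 FPKM (limma adjusted p = 0.0209 and 0.0326). For the combination against polyIC, fitting only the groups compared gave 4 (11.3%), array quality weights 10 (30.6%), the joint omission 3 (9.22%) and single omissions 0 to 1 (Il9r without control replicate 2, Il15ra without antiPDL1 replicate 2). Against antiPDL1, array quality weights gave 4 (6.86%), the joint omission 1 (0.726%) and single omissions 0 to 1 (Il13ra1 without control replicate 2). The interaction gave 0 under every alternative run. The median of all genes moved by less than 0.1 (log2) under both scalings. Without a filter 19 receptor genes were called in the combination, where 23.8% of all genes were: Il2rb was lost (limma adjusted p = 0.0556) and 6 genes under the filter were added, Il20ra higher (log2 change 0.43, limma adjusted p = 0.00533), and Il13ra2 (-1.11, 0.0156), Il17rc (-0.85, 0.00670), Il17re (-0.21, 0.0359), Il22ra1 (-0.19, 0.00475) and Il23r (-0.18, 0.0267) lower. Apart from filters and omissions, which change the genes or libraries in the fit, the cause of these shifts was not tested.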
